A study of Homo sapiens with 9 samples.

Results

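The genes described here encode voltage-gated ion channels and potassium channels, chosen by name from the count table: the KCN genes, the sodium channel genes SCN (A and B), and the calcium channel genes CACNA1A to I, CACNA2D, CACNB and CACNG. The rule found 139 of the 67140 rows of the table, under 134 gene names, because 5 names stand on a second row with no count. They comprise 98 potassium, 14 sodium and 27 calcium channel rows. RNA was sequenced from DMS273, an established human small cell lung cancer cell line grown in RPMI medium with 10% fetal bovine serum. Every group carried a CRISPRv2 construct: ATG7/SQSTM1 KO cells had both genes targeted, ATG7 KO cells had ATG7 targeted, and control cells had a scrambled guide and a wild-type genotype label, with 3 libraries each. ATG7 encodes an enzyme needed to build autophagosomes, and SQSTM1 encodes the cargo receptor p62. The labels name no guide sequence and do not say whether a knockout is 1 clone or a pool, or whether its 3 libraries are separate cultures. The p-values therefore measure the spread between libraries, which may be technical.

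Voltage-gated channels open when the membrane potential changes: sodium and calcium channels let positive charge in, and potassium channels let it out and return the membrane to rest. Each pore is built from alpha subunits, while beta, alpha2delta and gamma subunits and cytoplasmic partners set how many channels reach the surface and how fast they open and close. Small cell lung cancer cells resemble neuroendocrine cells, which fire action potentials and release hormone when calcium enters, and neuronal channel genes are commonly expressed in them.

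The libraries held 28675576 to 34222098 counts, and the channel genes took 0.119% to 0.121% of them in ATG7/SQSTM1 KO, 0.0780% to 0.0795% in ATG7 KO and 0.115% to 0.117% in control libraries. Values below are CPM, counts scaled to a common library size with TMM. ATG7 RNA averaged 10.6 ± 0.549 CPM in ATG7/SQSTM1 KO, 11.6 ± 1.52 CPM in ATG7 KO and 27.1 ± 0.899 CPM in control cells (SD, n = 3 each), and SQSTM1 RNA averaged 51.9 ± 3.28 CPM in ATG7/SQSTM1 KO, 390.4 ± 4.47 CPM in ATG7 KO and 376 ± 3.52 CPM in control cells. Markers of neuroendocrine small cell cancer summed to 898 to 931 CPM in ATG7/SQSTM1 KO, 506 to 513 CPM in ATG7 KO and 822 to 855 CPM in control libraries. Of these 11 markers 10 were lower and 1 higher in ATG7 KO than in control, while 28.3% of all genes were lower and 28.4% higher. Among these markers NEUROD1, a neuronal transcription factor, averaged 237 ± 6.80 CPM in ATG7/SQSTM1 KO, 73.2 ± 0.929 CPM in ATG7 KO and 194 ± 3.88 CPM in control cells. The same backgrounds apply to the marker counts that follow. Mature neuron markers summed to 85.7 to 92.5 CPM in ATG7/SQSTM1 KO, 40.4 to 44.0 CPM in ATG7 KO and 72.0 to 72.7 CPM in control, with 4 of 5 lower and 1 higher in ATG7 KO than in control. Fibroblast markers summed to 333 to 355 CPM in ATG7/SQSTM1 KO, 664 to 704 CPM in ATG7 KO and 186 to 201 CPM in control. Of 8 tested, 5 were higher and 3 not called in ATG7 KO against control. Epithelial markers summed to 127 to 141 CPM in ATG7/SQSTM1 KO, 176 to 182 CPM in ATG7 KO and 40.4 to 40.9 CPM in control, and all 4 were higher in ATG7 KO than in control. Blood markers summed to 2.47 to 3.50 CPM in ATG7/SQSTM1 KO, 8.42 to 8.81 CPM in ATG7 KO and 2.44 to 3.23 CPM in control, with CD3E at 0 throughout. The 3 tested blood markers were higher in ATG7 KO than in control. Tuft and non-neuroendocrine markers summed to 75.6 to 78.1 CPM in ATG7/SQSTM1 KO, 131 to 141 CPM in ATG7 KO and 57.2 to 58.0 CPM in control, with both tested members, YAP1 and REST, higher in ATG7 KO than in control. Muscle markers summed to 23.2 to 24.8 CPM in ATG7/SQSTM1 KO, 13.6 to 15.3 CPM in ATG7 KO and 18.5 to 19.7 CPM in control, with 3 of 4 tested lower and 1 higher in ATG7 KO than in control. Glial markers summed to 16.5 to 18.2 CPM in ATG7/SQSTM1 KO, 19.4 to 21.8 CPM in ATG7 KO and 19.9 to 20.9 CPM in control, with none of 3 tested called in ATG7 KO against control. The part of these marker shifts in the channel changes was not tested, and in bulk RNA fewer cells of a type cannot be told apart from less RNA per cell.

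A total of 77 channel genes passed the filter on low counts, 65 of them with at least 1 CPM and 28 with at least 10 CPM in their highest group. Of these, 3 passed only through the libraries of their highest group, CACNA1F and KCNV1 through ATG7/SQSTM1 KO and KCNN4 through ATG7 KO. All 3 stand among the calls between the knockouts below, and KCNV1 among those of ATG7/SQSTM1 KO against control, where the filter favours that direction. Levels of different genes are compared per kilobase of annotated exon. On that scale KCNH2, the hERG channel that repolarises the heart and is blocked by many drugs, stood first in every group, with 36.5 ± 0.464 CPM per kb in ATG7/SQSTM1 KO, 39.2 ± 0.0609 in ATG7 KO and 35.0 ± 0.569 in control cells (SD, n = 3 each). Other high levels in control cells were 13.5 CPM per kb for KCNJ3, 12.7 for CACNA2D1, 8.64 for CACNA2D2 and 7.45 for KCNK2. KCNJ3 and CACNA2D1 differed by less than the sum of their SDs. The pore subunits that admit charge were lower per kb than these in control cells. CACNA1H, a T-type calcium channel, reached 4.46 CPM per kb, above the potassium channel KCNK1 at 4.20. SCN8A, the highest sodium pore, reached 0.802 CPM per kb.

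**Figure D1:**
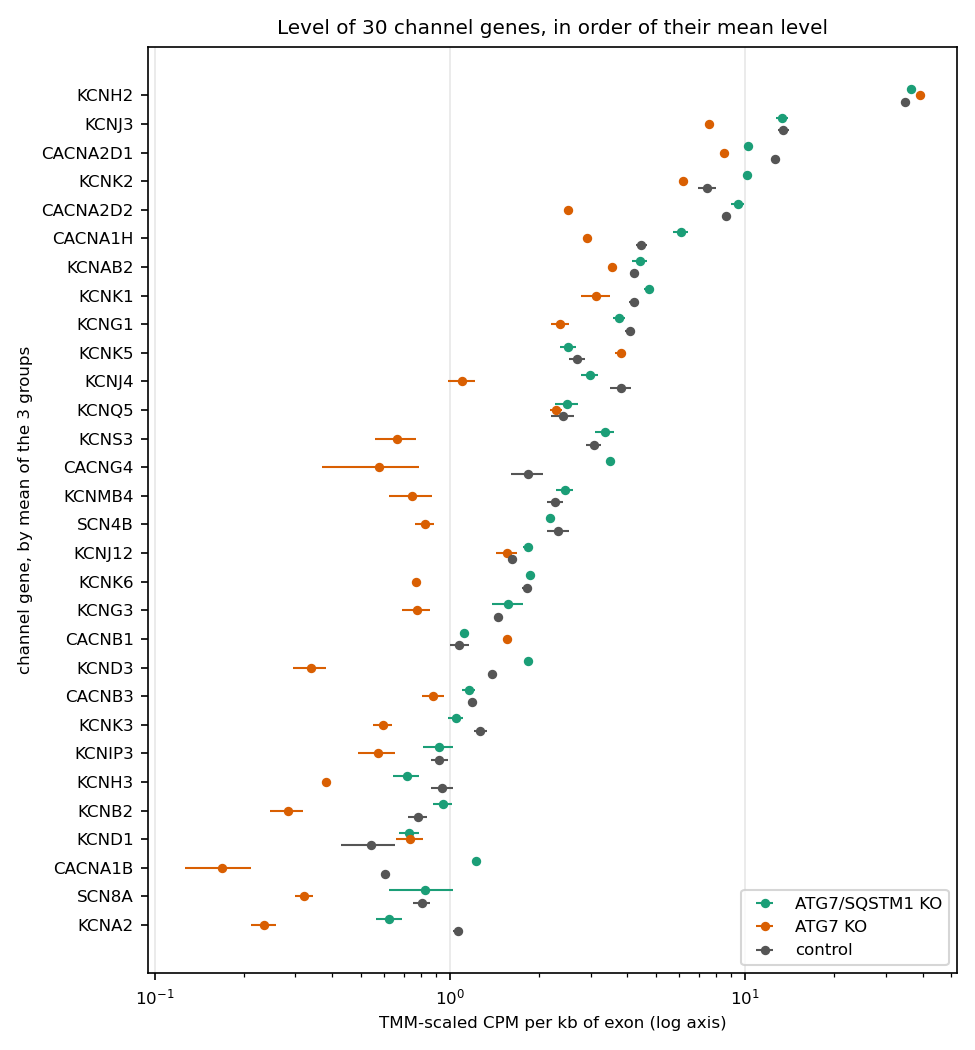
Mean level of 30 channel genes in order of their mean over the groups, in TMM-scaled CPM per kb of exon on a log axis, with bars for the SD of 3 libraries. KCNH2 lies highest in all groups, between 35.0 and 39.2 CPM per kb, and for most other genes the ATG7 KO point lies left of the ATG7/SQSTM1 KO and control points.

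Most channel genes were lower in ATG7 KO cells than in control cells. Of the 77 tested, 52 were lower and 9 higher at an edgeR adjusted p under 0.05, while across all 18847 genes 28.3% were called lower and 28.4% higher. Of these, 34 channel genes were at least 2-fold lower, against 8.28% of all genes, and 3 were at least 2-fold higher, against 4.22%. The 3 ATG7 KO libraries lay all below the control libraries for 54 channel genes, against 31.6% of all genes, and all above them for 10, against 30.8%. The median log2 change of the channel genes was -0.85 and that of all genes -0.017. Between the knockouts, 51 channel genes were higher and 10 lower in ATG7/SQSTM1 KO than in ATG7 KO, with backgrounds of 30.5% and 29.9%. Of these, 35 were at least 2-fold higher, against 9.07% of all genes, and 4 at least 2-fold lower, against 3.86%. The ATG7/SQSTM1 KO libraries lay all above the ATG7 KO libraries for 54 channel genes, against 33.5% of all genes, and all below them for 10, against 32.4%. The median log2 change there was 0.89, beside 0.019 for all genes. Against control, 13 channel genes were higher and 13 lower in ATG7/SQSTM1 KO cells, shares close to the backgrounds of 19.0% and 19.6%. At least 2-fold changes were 4 higher, against 2.2% of all genes, and 2 lower, against 1.66%. The ATG7/SQSTM1 KO libraries lay all above control for 25 channel genes, against 23.9% of all genes, and all below for 15, against 24.9%. The median log2 change was 0.061 for the channels and -0.0080 for all genes. In either direction 61, 61 and 26 of the 77 channel genes were called in ATG7 KO against control, in ATG7/SQSTM1 KO against ATG7 KO and in ATG7/SQSTM1 KO against control, where 56.7%, 60.5% and 38.6% of all genes were. The comparisons share libraries, so their values are set side by side only.

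**Figure D2:**
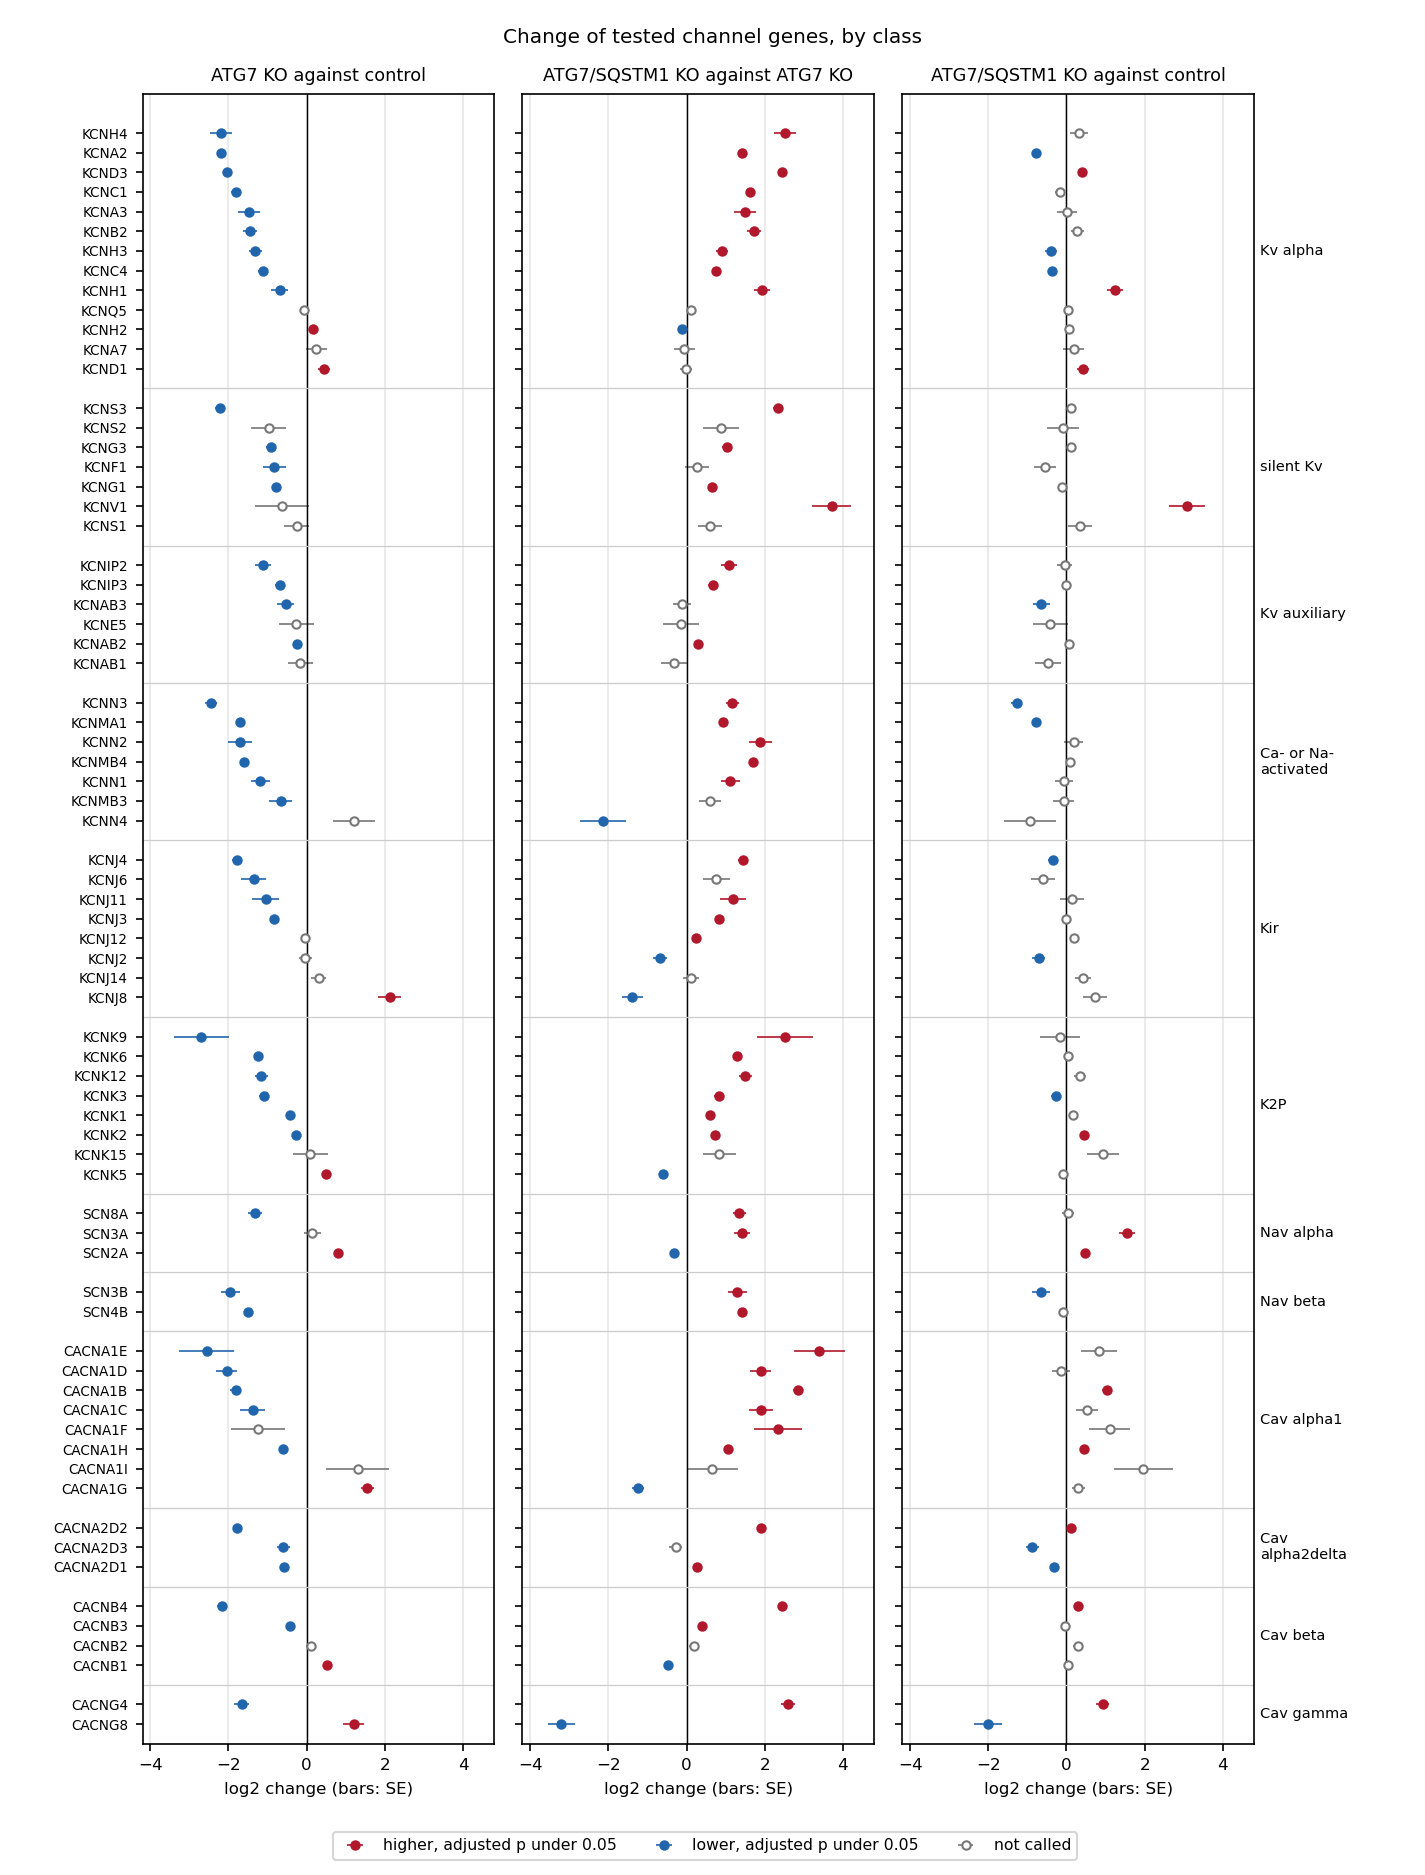
Log2 change of 71 of the tested channel genes in each comparison, grouped by class and ordered by the change in ATG7 KO against control, with bars for the SE. Filled points pass an edgeR adjusted p under 0.05: 47 lie left of zero in the first panel, 46 lie right of zero in the second, and 12 lie right and 13 left of zero in the third.

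Summed over all channel genes, RNA came to 1184, 1195 and 1193 CPM in ATG7/SQSTM1 KO, 792, 805 and 808 CPM in ATG7 KO and 1145, 1158 and 1143 CPM in control libraries. The ATG7 KO libraries lay below all others. Without KCNH2 the sums were 969 to 981 CPM in ATG7/SQSTM1 KO, 561 to 577 CPM in ATG7 KO and 937 to 950 CPM in control libraries. By ion, 36 of 53 potassium, 5 of 7 sodium and 11 of 17 calcium channel genes were lower in ATG7 KO than in control, with median log2 changes of -0.84, -1.32 and -0.62. Over all genes 28.3% were lower, with a median of -0.017. Counts of called genes differed by level. Of the 17 genes averaging at least 10 CPM over all libraries 16 were called in ATG7 KO against control, of the 41 between 1 and 10 CPM 36, and of the 19 under 1 CPM 9. The share of all genes called at the same levels was not computed. Replicates were close, with a median coefficient of variation of 6.81%, 8.99% and 6.62% in ATG7/SQSTM1 KO, ATG7 KO and control over the channel genes of at least 1 CPM in that group.

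**Figure D3:**
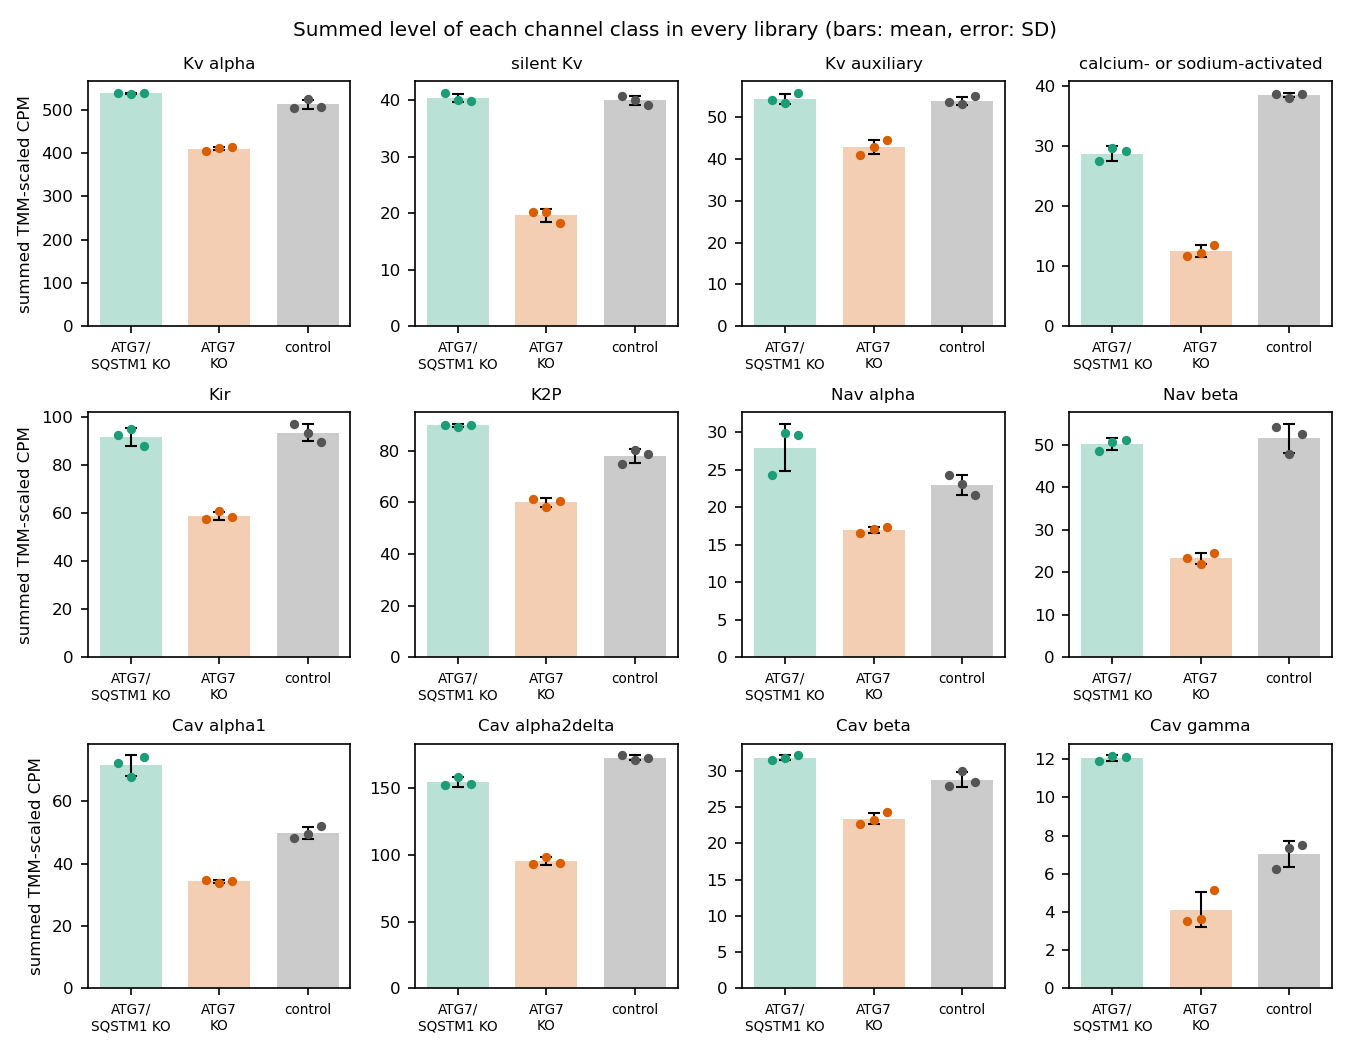
Summed CPM of each channel class in every library, with bars for the mean and error bars for the SD of 3 libraries. Every class is lowest in ATG7 KO, calcium- or sodium-activated channels stay lower in ATG7/SQSTM1 KO (27.4 to 29.7 CPM) than in control (38.0 to 38.7 CPM), and Cav alpha1 pores are higher in ATG7/SQSTM1 KO (67.9 to 74.3 CPM) than in control (48.3 to 52.0 CPM).

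The proximal promoters of 5 members with a RefSeq promoter near their annotated start are shown. KCNN3, KCNS3 and KCNH4 had the largest falls in ATG7 KO against control among genes of at least 1 CPM. CACNB1 and KCNK5 had the largest rises among called genes with such a promoter. Larger rises, such as that of KCNJ8 (log2 change 2.13), are not covered. Each sequence is the 250 bases before the RefSeq start on GRCh38.p14, written 5′ to 3′ on the gene's strand. The intervals are chr1:154870282-154870531 (minus strand), chr2:17877597-17877846 (plus), chr17:42181143-42181392 (minus), chr17:39197670-39197919 (minus) and chr6:39229476-39229725 (minus). Capitals mark GC boxes (GGGCGG) and E-boxes (CAGCTG or CAGATG) on either strand.
KCNN3: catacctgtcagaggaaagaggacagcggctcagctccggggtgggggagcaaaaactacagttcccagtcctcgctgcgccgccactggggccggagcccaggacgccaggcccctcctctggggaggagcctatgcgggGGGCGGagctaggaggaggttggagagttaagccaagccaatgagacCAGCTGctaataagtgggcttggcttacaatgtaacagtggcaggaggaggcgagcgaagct
KCNS3: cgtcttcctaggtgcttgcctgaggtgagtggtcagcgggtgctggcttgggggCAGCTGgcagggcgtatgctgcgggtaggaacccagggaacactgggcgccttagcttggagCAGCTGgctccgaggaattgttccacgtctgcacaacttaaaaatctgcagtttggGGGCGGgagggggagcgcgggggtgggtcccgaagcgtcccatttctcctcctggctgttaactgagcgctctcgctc
KCNH4: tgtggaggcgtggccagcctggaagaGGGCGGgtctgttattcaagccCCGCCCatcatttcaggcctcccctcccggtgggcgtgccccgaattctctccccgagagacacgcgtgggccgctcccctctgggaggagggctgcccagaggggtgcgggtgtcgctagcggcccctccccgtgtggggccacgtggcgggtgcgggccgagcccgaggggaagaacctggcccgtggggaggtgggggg
CACNB1: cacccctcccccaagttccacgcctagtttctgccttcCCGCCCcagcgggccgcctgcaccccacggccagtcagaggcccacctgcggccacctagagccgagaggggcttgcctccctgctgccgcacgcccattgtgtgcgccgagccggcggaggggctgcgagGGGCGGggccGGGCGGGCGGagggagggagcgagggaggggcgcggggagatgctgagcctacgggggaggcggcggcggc
KCNK5: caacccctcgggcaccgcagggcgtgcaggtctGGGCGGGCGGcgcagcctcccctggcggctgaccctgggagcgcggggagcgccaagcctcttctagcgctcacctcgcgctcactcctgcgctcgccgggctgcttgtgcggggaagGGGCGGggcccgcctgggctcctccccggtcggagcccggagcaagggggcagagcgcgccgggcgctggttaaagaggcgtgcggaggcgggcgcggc
All 5 hold a GC box, and KCNN3 and KCNS3 hold a CAGCTG E-box. Of the 77 tested channel genes 34 had a RefSeq promoter within 500 bases of their GENCODE start. In the window of 250 bases before and 50 after the start, GGGCGG was found in 76.5% of them and in 70.0% of the 9817 promoters of all tested genes. CAGCTG was found in 14.7% and 16.9%, CAGATG in 20.6% and 9.68%, and TATAAA in 8.82% and 6.11% of the same sets. TTCAGCACC, part of the element bound by the repressor REST, was found in 1 channel promoter, that of KCNK3, and in 0.316% of all. The 22 promoters of channels lower in ATG7 KO had a median GC content of 70.5% and the 4 of channels that were higher 75.3%, against 70.5% over all 34 channel promoters and 65.3% over all tested genes. A match is a description of the letters and does not show that a factor binds.

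Among the 17 tested voltage-gated potassium pores, 12 were lower and 3 higher in ATG7 KO than in control cells. For this and the class counts below, the backgrounds over all genes are 28.3% lower and 28.4% higher. KCNQ5, a pore of the M-channels that damp repetitive firing, averaged 18.9 ± 1.70 CPM in ATG7/SQSTM1 KO, 17.4 ± 0.824 CPM in ATG7 KO and 18.3 ± 1.67 CPM in control cells and was not called in any comparison. KCNQ3, another M-channel pore, had no count in any library, which allows up to 0.0108 CPM over the 9 libraries for counting error alone.

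KCND3 (GRCh38, chromosome 1, 111770662 to 111989155, minus strand), the Kv4.3 pore of the fast inactivating A-type current, had 14.4, 14.4 and 14.5 CPM in ATG7/SQSTM1 KO, 2.59, 2.35 and 3.03 CPM in ATG7 KO and 10.7, 10.8 and 11.3 CPM in control libraries. In ATG7 KO it fell by 2.03 on the log2 scale (SE 0.10, edgeR adjusted p = 1.94e-13), with no overlap with either other group. Its ATG7/SQSTM1 KO libraries lay above the control libraries, by 0.40 (SE 0.086, edgeR adjusted p = 0.000681). KCND1, another A-type pore, had 4.11, 3.98 and 4.62 CPM in ATG7/SQSTM1 KO, 3.89, 4.76 and 4.14 CPM in ATG7 KO and 3.87, 2.62 and 2.94 CPM in control libraries. It was called higher than control in ATG7 KO, 0.44 (SE 0.15, edgeR adjusted p = 0.0209). It was also called higher than control in ATG7/SQSTM1 KO, 0.43 (SE 0.15, edgeR adjusted p = 0.0336), and its 2 knockout groups overlapped. The first call was lost without ATG7 KO replicate 2, control replicate 2 or control replicate 3 (adjusted p 0.0756 to 0.112) and the second without ATG7/SQSTM1 KO replicate 1 or 3 or control replicate 2 or 3 (adjusted p 0.0585 to 0.164) and with DESeq2 (adjusted p 0.0664).

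KCNA2 and KCNA3 are Shaker-type delayed rectifiers, and KCNA3 is known from T lymphocytes. KCNA2 had 12.0, 9.77 and 10.8 CPM in ATG7/SQSTM1 KO, 3.72, 3.99 and 4.50 CPM in ATG7 KO and 17.9, 18.2 and 19.3 CPM in control libraries. The groups did not overlap. Against control, KCNA2 stood at -2.18 (SE 0.10, edgeR adjusted p = 2.69e-14) on the log2 scale in ATG7 KO. In ATG7/SQSTM1 KO it stood at -0.77 (SE 0.086, edgeR adjusted p = 3.55e-07) against control. KCNA3 averaged 1.72 ± 0.355 CPM in ATG7/SQSTM1 KO, 0.609 ± 0.0969 CPM in ATG7 KO and 1.71 ± 0.525 CPM in control cells, a change of -1.48 (SE 0.28, edgeR adjusted p = 0.000101) in ATG7 KO against control. KCNC1, a Kv3 pore of fast-spiking neurons, had 6.58, 6.58 and 6.72 CPM in ATG7/SQSTM1 KO, 2.08, 2.18 and 2.14 CPM in ATG7 KO and 7.44, 8.37 and 6.56 CPM in control libraries. Its ATG7 KO libraries lay below all others, -1.80 (SE 0.13, edgeR adjusted p = 6.34e-11) against control, and the ATG7/SQSTM1 KO and control libraries overlapped. KCNC4, another Kv3 pore, had 8.01, 8.13 and 8.24 CPM in ATG7/SQSTM1 KO, 3.82, 4.86 and 5.64 CPM in ATG7 KO and 10.4, 11.1 and 9.88 CPM in control libraries. It was lower than control in ATG7 KO, -1.13 (SE 0.12, edgeR adjusted p = 3.11e-08). The ATG7/SQSTM1 KO libraries were also lower than control, -0.36 (SE 0.11, edgeR adjusted p = 0.0118), and the call in ATG7/SQSTM1 KO was lost without control replicate 2 (adjusted p 0.0536). KCNB2, a delayed rectifier pore, averaged 3.39 ± 0.250 CPM in ATG7/SQSTM1 KO, 1.01 ± 0.131 CPM in ATG7 KO and 2.80 ± 0.208 CPM in control cells, -1.46 (SE 0.18, edgeR adjusted p = 4.9e-07) in ATG7 KO against control.

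The ether-a-go-go family, KCNH, was divided. KCNH2 (GRCh38, chromosome 7, 150944961 to 150978315, minus strand) had 215, 217 and 212 CPM in ATG7/SQSTM1 KO, 230.5, 230.2 and 231 CPM in ATG7 KO and 202, 209 and 206.5 CPM in control libraries. The groups did not overlap, and the log2 change was 0.16 (SE 0.026, edgeR adjusted p = 1.5e-05) for ATG7 KO against control. For ATG7/SQSTM1 KO against ATG7 KO it was -0.10 (SE 0.026, edgeR adjusted p = 0.00173), and -0.065 with scaling on library totals alone. For ATG7/SQSTM1 KO against control it was 0.061 (SE 0.026, edgeR adjusted p = 0.0729), which passed the threshold with a filter at a mean of 1 CPM (adjusted p 0.0406). KCNH1, known for its expression in many tumours, had 3.90, 4.73 and 3.63 CPM in ATG7/SQSTM1 KO, 1.23, 0.804 and 1.18 CPM in ATG7 KO and 2.13, 1.48 and 1.53 CPM in control libraries. ATG7/SQSTM1 KO libraries lay above all others, 1.24 (SE 0.20, edgeR adjusted p = 2.79e-05) against control. ATG7 KO was lower than control, with -0.68 (SE 0.22, edgeR adjusted p = 0.0106), a call lost without ATG7 KO replicate 2 or control replicate 1 (adjusted p 0.0715 to 0.0953). KCNH1 shares 36.9% of its exon bases with AC096636.1 on the opposite strand and 16.1% with AL590132.1 on the same strand. AC096636.1 averaged 0.29 CPM over all libraries, beside 2.29 CPM for KCNH1. Whether counting used strand is not stated, so the KCNH1 counts are uncertain. The neuronal ELK channels KCNH3 and KCNH4 were both lower in ATG7 KO than in control. KCNH3 had 3.41, 3.09 and 2.80 CPM in ATG7/SQSTM1 KO, 1.67, 1.68 and 1.59 CPM in ATG7 KO and 3.72, 4.44 and 4.13 CPM in control libraries. It changed by -1.31 (SE 0.16, edgeR adjusted p = 3.46e-07) in ATG7 KO against control. In ATG7/SQSTM1 KO it changed by -0.40 (SE 0.15, edgeR adjusted p = 0.0383) against control. This second call was lost without ATG7/SQSTM1 KO replicate 2 or 3 or control replicate 2 or 3 (adjusted p 0.0812 to 0.140) and with DESeq2 (adjusted p 0.106) and with no low-count filter (adjusted p 0.0968). KCNH4 had 2.77, 3.02 and 2.39 CPM in ATG7/SQSTM1 KO, 0.239, 0.402 and 0.765 CPM in ATG7 KO and 2.13, 2.38 and 2.02 CPM in control libraries. It was lowest in ATG7 KO, -2.19 (SE 0.28, edgeR adjusted p = 8.48e-07) against control.

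Silent subunits, which conduct only together with Kv2 pores, gave 4 lower and none higher of 7 in ATG7 KO against control. In either direction 57.1% of them were called, close to the 56.7% of all genes. KCNG1, the highest of them per kb, had 19.9, 21.4 and 19.7 CPM in ATG7/SQSTM1 KO, 12.7, 13.8 and 12.1 CPM in ATG7 KO and 22.5, 22.7 and 21.1 CPM in control libraries. Its log2 change in ATG7 KO against control was -0.78 (SE 0.068, edgeR adjusted p = 2.44e-09). KCNS3 had 10.8, 9.64 and 11.1 CPM in ATG7/SQSTM1 KO, 2.35, 1.71 and 2.17 CPM in ATG7 KO and 10.1, 9.02 and 9.85 CPM in control libraries. Those of ATG7 KO lay far below the rest, -2.22 (SE 0.12, edgeR adjusted p = 1.2e-12) against control, and ATG7/SQSTM1 KO overlapped control. KCNV1 had 1.19, 1.06 and 1.37 CPM in ATG7/SQSTM1 KO, 0.102, 0.168 and 0 CPM in ATG7 KO and 0.122, 0.206 and 0.0960 CPM in control libraries. These were 41, 31 and 43 counts in ATG7/SQSTM1 KO, 3, 5 and 0 in ATG7 KO and 4, 6 and 3 in control libraries. KCNV1 passed the filter on low counts only through ATG7/SQSTM1 KO, its highest group, so its calls in both comparisons with that group are a description. KCNF1 averaged 0.677 ± 0.152 CPM in ATG7/SQSTM1 KO, 0.563 ± 0.0653 CPM in ATG7 KO and 1.00 ± 0.144 CPM in control cells, -0.83 (SE 0.29, edgeR adjusted p = 0.02) in ATG7 KO against control, a call lost without ATG7 KO replicate 1 or 3 or control replicate 2 (adjusted p 0.0539 to 0.0805) and with DESeq2 (adjusted p 0.0747). KCNG3 averaged 6.05 ± 0.727 CPM in ATG7/SQSTM1 KO, 2.96 ± 0.326 CPM in ATG7 KO and 5.57 ± 0.0732 CPM in control cells, -0.91 (SE 0.13, edgeR adjusted p = 3.97e-06) in ATG7 KO against control.

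Of the 6 tested auxiliary subunits of voltage-gated potassium channels, 4 were lower and none higher in ATG7 KO than in control. In either direction 66.7% of them were called, beside 56.7% of all genes. KCNAB2, a beta subunit related to oxidoreductases, had 41.9, 39.4 and 44.4 CPM in ATG7/SQSTM1 KO, 33.1, 34.0 and 34.6 CPM in ATG7 KO and 39.6, 40.0 and 40.8 CPM in control libraries. ATG7 KO had its lowest values, -0.24 (SE 0.047, edgeR adjusted p = 0.000138) against control. KCNAB3 had 1.86, 2.09 and 1.21 CPM in ATG7/SQSTM1 KO, 1.33, 2.04 and 2.20 CPM in ATG7 KO and 2.68, 2.62 and 2.78 CPM in control libraries. Control libraries were highest, and ATG7/SQSTM1 KO stood at -0.65 (SE 0.22, edgeR adjusted p = 0.0214) against control. ATG7 KO stood at -0.53 (SE 0.21, edgeR adjusted p = 0.0398) against control. The first call was lost without ATG7/SQSTM1 KO replicate 3 or control replicate 1 or 3 (adjusted p 0.0541 to 0.133). The second was lost without ATG7 KO replicate 1 or 2 or any control library (adjusted p 0.0520 to 0.221) and with DESeq2 (adjusted p 0.08) and with no low-count filter (adjusted p 0.0585). Without ATG7 KO replicate 1 its log2 change was -0.33. The calcium sensors KCNIP2 and KCNIP3 bind Kv4 pores such as KCND3. KCNIP2 averaged 2.06 ± 0.243 CPM in ATG7/SQSTM1 KO, 0.974 ± 0.0821 CPM in ATG7 KO and 2.12 ± 0.254 CPM in control cells. KCNIP3 averaged 7.23 ± 0.833 CPM in ATG7/SQSTM1 KO, 4.49 ± 0.657 CPM in ATG7 KO and 7.25 ± 0.480 CPM in control cells. Both were lower in ATG7 KO than in control, with a log2 change of -1.12 (SE 0.21, edgeR adjusted p = 8.25e-05) for KCNIP2. That of KCNIP3 was -0.69 (SE 0.12, edgeR adjusted p = 6.6e-05). KCNIP2 shares 12.2% of its exon bases with KCNIP2-AS1 on the other strand, and it is not stated whether counting used strand.

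**Figure D4:**
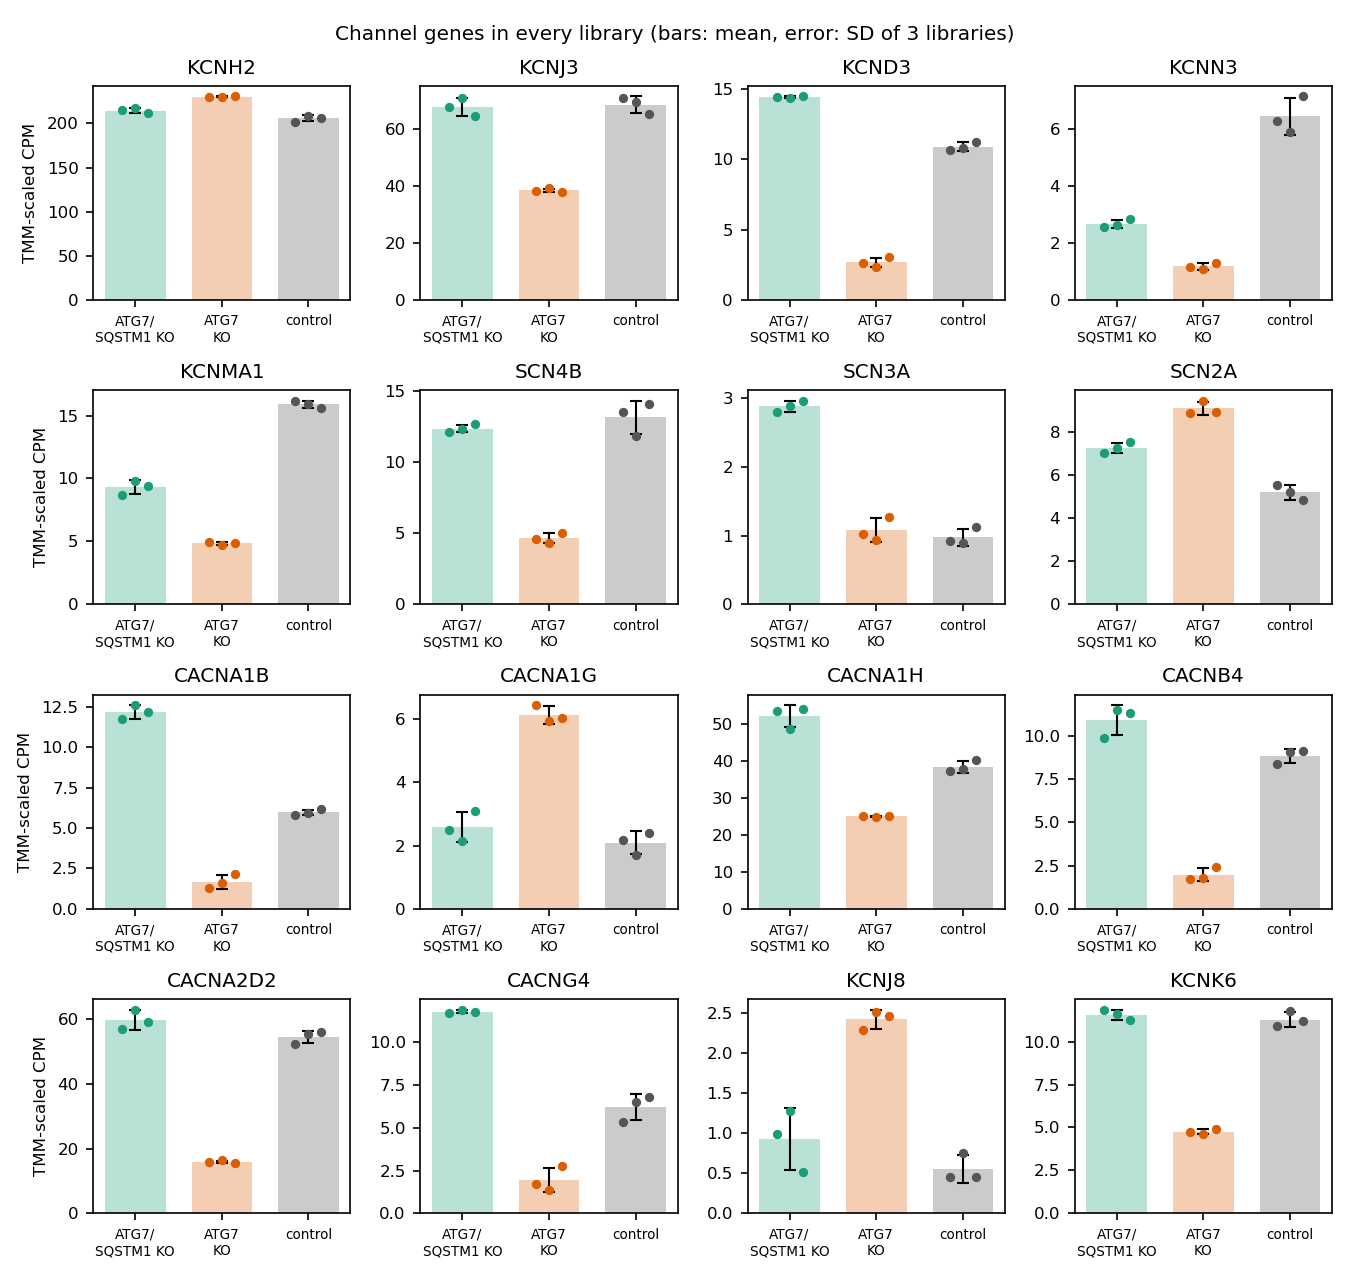
CPM of 16 channel genes in each library (points), with bars for the mean and error bars for the SD of 3 libraries, on linear axes from 0. KCND3, CACNA1B and CACNG4 are lowest in ATG7 KO and highest in ATG7/SQSTM1 KO, KCNN3 and KCNMA1 remain below control in ATG7/SQSTM1 KO, and SCN2A, CACNA1G and KCNJ8 are highest in ATG7 KO.

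Potassium channels opened by calcium or sodium, with their KCNMB beta subunits, summed to 28.8 ± 1.19 CPM in ATG7/SQSTM1 KO, 12.5 ± 1.00 CPM in ATG7 KO and 38.5 ± 0.354 CPM in control cells, and 6 of 7 tested genes were lower in ATG7 KO than in control. KCNN3 (GRCh38, chromosome 1, 154697455 to 154870280, minus strand), whose promoter is shown above, forms SK channels that follow the action potential. It had 2.56, 2.61 and 2.83 CPM in ATG7/SQSTM1 KO, 1.16, 1.07 and 1.31 CPM in ATG7 KO and 6.25, 5.89 and 7.13 CPM in control libraries. No libraries of different groups overlapped, and against control the log2 change was -2.44 (SE 0.16, edgeR adjusted p = 1.76e-11) in ATG7 KO. It was, in ATG7/SQSTM1 KO, -1.27 (SE 0.14, edgeR adjusted p = 3.86e-07) against control. KCNN2, another SK pore, had 1.57, 1.06 and 1.30 CPM in ATG7/SQSTM1 KO, 0.375, 0.268 and 0.414 CPM in ATG7 KO and 1.19, 1.31 and 0.992 CPM in control libraries. It was lowest in ATG7 KO, -1.71 (SE 0.30, edgeR adjusted p = 4.16e-05) against control. The change was 1.89 (SE 0.29, edgeR adjusted p = 8.82e-06) for ATG7/SQSTM1 KO against ATG7 KO. KCNN1 averaged 2.19 ± 0.360 CPM in ATG7/SQSTM1 KO, 0.997 ± 0.351 CPM in ATG7 KO and 2.28 ± 0.344 CPM in control cells, -1.18 (SE 0.24, edgeR adjusted p = 0.000219) in ATG7 KO against control.

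KCNMA1, the large-conductance BK pore opened by calcium and voltage, had 8.71, 9.81 and 9.39 CPM in ATG7/SQSTM1 KO, 4.94, 4.72 and 4.91 CPM in ATG7 KO and 16.2, 15.9 and 15.6 CPM in control libraries. Its groups did not overlap, and ATG7 KO was -1.71 (SE 0.084, edgeR adjusted p = 1.99e-13) on the log2 scale against control. The change in ATG7/SQSTM1 KO was -0.77 (SE 0.079, edgeR adjusted p = 9e-08) against control. KCNMB4, the beta subunit of neuronal BK channels, had 11.1, 12.7 and 12.1 CPM in ATG7/SQSTM1 KO, 3.07, 3.58 and 4.27 CPM in ATG7 KO and 11.2, 11.8 and 10.4 CPM in control libraries. It fell in ATG7 KO, -1.61 (SE 0.11, edgeR adjusted p = 5.84e-11) against control. ATG7/SQSTM1 KO and control overlapped, 0.10 (SE 0.10, edgeR adjusted p = 0.453). The difference between KCNMA1 and KCNMB4 in ATG7/SQSTM1 KO against control was not tested. KCNN4, the intermediate-conductance channel of blood cells and epithelia, stayed under 1 CPM on average, at 0.102 ± 0.0882 CPM in ATG7/SQSTM1 KO, 0.474 ± 0.0373 CPM in ATG7 KO and 0.202 ± 0.0929 CPM in control cells. It had 5, 0 and 5 counts in ATG7/SQSTM1 KO, 14, 13 and 16 in ATG7 KO and 7, 3 and 9 in control libraries. It passed the filter only through ATG7 KO, its highest group, so its call between the knockouts is a description. KCNMB3 shares 37.9% of its exon bases with PIK3CA on the opposite strand, and its counts are uncertain. Its fall in ATG7 KO, -0.67 (SE 0.28, edgeR adjusted p = 0.0496) against control, was lost without ATG7 KO replicate 1 or 3 or control replicate 1 or 3 (adjusted p 0.0549 to 0.219). It was also lost with DESeq2 (adjusted p 0.133), with no low-count filter (adjusted p 0.0896), with relative log expression size factors (adjusted p 0.0539) and with only the 6 libraries compared (adjusted p 0.0524).

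Inward rectifiers hold the resting potential. KCNJ3, the GIRK pore opened by G proteins, was the highest of them and had 67.7, 70.8 and 64.5 CPM in ATG7/SQSTM1 KO, 38.2, 39.0 and 37.7 CPM in ATG7 KO and 70.6, 69.5 and 65.0 CPM in control libraries. Those of ATG7 KO lay below the others, -0.84 (SE 0.044, edgeR adjusted p = 5.27e-13) against control, and ATG7/SQSTM1 KO overlapped control. KCNJ6, with which KCNJ3 forms neuronal GIRK channels, averaged 0.601 ± 0.110 CPM in ATG7/SQSTM1 KO, 0.352 ± 0.0896 CPM in ATG7 KO and 0.910 ± 0.0732 CPM in control cells, -1.36 (SE 0.33, edgeR adjusted p = 0.00119) in ATG7 KO against control. KCNJ4, a strong rectifier of the Kir2 family, had 6.61, 6.07 and 5.79 CPM in ATG7/SQSTM1 KO, 2.52, 2.28 and 2.04 CPM in ATG7 KO and 8.45, 7.99 and 7.17 CPM in control libraries. The groups were ordered without overlap, with a change of -1.79 (SE 0.13, edgeR adjusted p = 8.75e-11) in ATG7 KO against control. The ATG7/SQSTM1 KO value was -0.35 (SE 0.12, edgeR adjusted p = 0.0191) against control. The second call was lost without ATG7/SQSTM1 KO replicate 2 or 3 or control replicate 1 or 2 (adjusted p 0.0581 to 0.111). KCNJ2, also of the Kir2 family, had 2.01, 1.92 and 2.32 CPM in ATG7/SQSTM1 KO, 2.79, 3.72 and 3.51 CPM in ATG7 KO and 3.93, 2.75 and 3.55 CPM in control libraries. It was lowest in ATG7/SQSTM1 KO, -0.71 (SE 0.17, edgeR adjusted p = 0.0025) against control. Against ATG7 KO it was -0.68 (SE 0.18, edgeR adjusted p = 0.00204), and ATG7 KO and control overlapped. KCNJ12 averaged 10.3 ± 0.377 CPM in ATG7/SQSTM1 KO, 8.79 ± 0.717 CPM in ATG7 KO and 9.10 ± 0.0860 CPM in control cells and is nearly identical to KCNJ18, so reads may have been split between them. Its change of 0.24 (SE 0.086, edgeR adjusted p = 0.0226) in ATG7/SQSTM1 KO against ATG7 KO was lost without ATG7/SQSTM1 KO replicate 1 or 2 or ATG7 KO replicate 1 (adjusted p 0.0562 to 0.128) and with DESeq2 (adjusted p 0.0798).

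The pores of ATP-sensitive channels, which link metabolism to excitability, went opposite ways in ATG7 KO against control. KCNJ8 (GRCh38, chromosome 12, 21764955 to 21775581, minus strand) had 0.990, 1.27 and 0.509 CPM in ATG7/SQSTM1 KO, 2.28, 2.51 and 2.46 CPM in ATG7 KO and 0.457, 0.757 and 0.448 CPM in control libraries. It was highest in ATG7 KO, 2.13 (SE 0.29, edgeR adjusted p = 2.03e-06) against control. ATG7/SQSTM1 KO was -1.39 (SE 0.27, edgeR adjusted p = 0.000144) against ATG7 KO. Against control, ATG7/SQSTM1 KO was 0.74 (SE 0.31, edgeR adjusted p = 0.0687), which passed the threshold with a filter at a mean of 1 CPM (adjusted p 0.049), and without ATG7/SQSTM1 KO replicate 3 (adjusted p 0.00957) or control replicate 2 (adjusted p 0.0287), both with a log2 change of 1.02. KCNJ11 averaged 0.862 ± 0.0399 CPM in ATG7/SQSTM1 KO, 0.374 ± 0.0902 CPM in ATG7 KO and 0.778 ± 0.270 CPM in control cells, -1.05 (SE 0.34, edgeR adjusted p = 0.0125) in ATG7 KO against control, a call lost without ATG7 KO replicate 1 or control replicate 3 (adjusted p 0.0597 to 0.0948). Of their sulfonylurea receptors, ABCC8, which pairs with KCNJ11 in the pancreas, had 10, 12 and 15 counts in ATG7/SQSTM1 KO, 0 in each ATG7 KO library and 12, 6 and 6 counts in control. ABCC9, which pairs with KCNJ8 in vessels, averaged 1.11 ± 0.334 CPM in ATG7/SQSTM1 KO, 2.15 ± 0.604 CPM in ATG7 KO and 3.06 ± 0.172 CPM in control cells. Its log2 change was -1.46 (SE 0.23, edgeR adjusted p = 2.7e-05) in ATG7/SQSTM1 KO against control. In ATG7 KO against control it was -0.50 (SE 0.22, edgeR adjusted p = 0.0526).

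Potassium channels of the K2P family pass the background leak current, and 6 of 8 were lower and 1 higher in ATG7 KO than in control. KCNK2, the stretch-sensitive TREK-1 channel, had 40.1, 40.4 and 38.8 CPM in ATG7/SQSTM1 KO, 24.5, 23.6 and 24.0 CPM in ATG7 KO and 27.2, 31.2 and 28.9 CPM in control libraries. The groups did not overlap, and ATG7 KO was -0.28 (SE 0.053, edgeR adjusted p = 0.000132) against control. The change in ATG7/SQSTM1 KO was 0.45 (SE 0.051, edgeR adjusted p = 3.84e-07) against control. KCNK6 averaged 11.6 ± 0.298 CPM in ATG7/SQSTM1 KO, 4.76 ± 0.143 CPM in ATG7 KO and 11.3 ± 0.451 CPM in control cells, -1.24 (SE 0.087, edgeR adjusted p = 6.96e-11) in ATG7 KO against control. KCNK1 averaged 17.2 ± 0.642 CPM in ATG7/SQSTM1 KO, 11.4 ± 1.31 CPM in ATG7 KO and 15.2 ± 0.536 CPM in control cells, -0.42 (SE 0.080, edgeR adjusted p = 0.000121) in ATG7 KO against control. KCNK9 averaged 0.333 ± 0.138 CPM in ATG7/SQSTM1 KO, 0.0548 ± 0.0509 CPM in ATG7 KO and 0.382 ± 0.172 CPM in control cells, -2.69 (SE 0.71, edgeR adjusted p = 0.00287) in ATG7 KO against control. With only the 6 libraries compared KCNK9 missed the filter and was not tested, both in that comparison and between the knockouts. Its change rests on few counts: 16, 10 and 6 in ATG7/SQSTM1 KO, 0, 3 and 2 in ATG7 KO and 6, 14 and 15 in control libraries. KCNK12 averaged 4.23 ± 0.551 CPM in ATG7/SQSTM1 KO, 1.49 ± 0.196 CPM in ATG7 KO and 3.33 ± 0.141 CPM in control cells, -1.16 (SE 0.17, edgeR adjusted p = 4.36e-06) in ATG7 KO against control. KCNK3, KCNK5 and KCNK9 form acid-sensitive TASK channels, and KCNK5 alone of them was higher in ATG7 KO than in control. KCNK3 had 6.06, 6.72 and 6.78 CPM in ATG7/SQSTM1 KO, 4.02, 3.52 and 3.54 CPM in ATG7 KO and 7.50, 7.88 and 8.32 CPM in control libraries. It was -1.10 (SE 0.11, edgeR adjusted p = 3e-08) in ATG7 KO against control. It was, in ATG7/SQSTM1 KO, -0.28 (SE 0.11, edgeR adjusted p = 0.0447) against control. The second call did not hold with any single ATG7/SQSTM1 KO or control library omitted (adjusted p 0.0591 to 0.156), nor with DESeq2 (adjusted p 0.113) or with no low-count filter (adjusted p 0.0975). KCNK5 had 9.93, 8.81 and 9.68 CPM in ATG7/SQSTM1 KO, 14.9, 14.3 and 13.6 CPM in ATG7 KO and 9.48, 10.2 and 10.8 CPM in control libraries. It was highest in ATG7 KO, 0.49 (SE 0.080, edgeR adjusted p = 1.95e-05) against control. The change was -0.59 (SE 0.080, edgeR adjusted p = 1.62e-06) for ATG7/SQSTM1 KO against ATG7 KO.

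The 4 sodium pores tested, which drive the upstroke of the action potential, took different courses. SCN8A, the main sodium pore of the axon initial segment, had 8.82, 14.2 and 13.9 CPM in ATG7/SQSTM1 KO, 4.74, 5.16 and 4.50 CPM in ATG7 KO and 12.8, 11.9 and 11.2 CPM in control libraries. ATG7 KO lay below the others, -1.32 (SE 0.17, edgeR adjusted p = 4.85e-05) against control, and ATG7/SQSTM1 KO replicate 1 lay below both other libraries of its group. SCN2A (GRCh38, chromosome 2, 165194993 to 165392310, plus strand), a neuronal pore, had 7.02, 7.24 and 7.51 CPM in ATG7/SQSTM1 KO, 8.90, 9.45 and 8.93 CPM in ATG7 KO and 5.55, 5.20 and 4.83 CPM in control libraries. The groups did not overlap and it was highest in ATG7 KO, 0.81 (SE 0.10, edgeR adjusted p = 4.3e-07) against control. The log2 change in ATG7/SQSTM1 KO was 0.48 (SE 0.10, edgeR adjusted p = 0.000536) against control. SCN3A (GRCh38, chromosome 2, 165087522 to 165204067, minus strand), a pore abundant in the brain before birth, had 2.80, 2.88 and 2.96 CPM in ATG7/SQSTM1 KO, 1.02, 0.938 and 1.27 CPM in ATG7 KO and 0.915, 0.895 and 1.12 CPM in control libraries. Its ATG7/SQSTM1 KO libraries lay above all others, 1.56 (SE 0.20, edgeR adjusted p = 2.97e-06) against control. Against ATG7 KO the change was 1.41 (SE 0.20, edgeR adjusted p = 3.29e-06), and ATG7 KO overlapped control. SCN2A and SCN3A lie side by side on opposite strands, and 9.91% of the exon bases of SCN3A are shared with AC019197.1 on the opposite strand. Over all libraries AC019197.1 averaged 13.0 CPM and SCN3A 1.65 CPM. AC019197.1 also shares 1.01% of the exon bases of SCN2A, on the same strand. Whether counting used strand is not stated, so the SCN3A counts are uncertain.

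All 3 tested sodium channel beta subunits, cell-adhesion proteins that modulate the pore, were lower in ATG7 KO. SCN4B averaged 12.4 ± 0.268 CPM in ATG7/SQSTM1 KO, 4.64 ± 0.343 CPM in ATG7 KO and 13.2 ± 1.16 CPM in control cells, -1.50 (SE 0.092, edgeR adjusted p = 8.29e-12) in ATG7 KO against control. SCN3B had 2.53, 3.91 and 3.12 CPM in ATG7/SQSTM1 KO, 1.19, 1.24 and 1.43 CPM in ATG7 KO and 6.13, 3.13 and 5.69 CPM in control libraries. ATG7 KO was -1.95 (SE 0.24, edgeR adjusted p = 5.04e-06) against control. ATG7/SQSTM1 KO overlapped control at -0.65 (SE 0.22, edgeR adjusted p = 0.0305), a call lost without ATG7/SQSTM1 KO replicate 1 or 3 or control replicate 1 or 3 (adjusted p 0.0937 to 0.142) and with only the 6 libraries compared (adjusted p 0.107).

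Of 8 tested calcium pores, 5 were lower and 1 higher in ATG7 KO than in control. CACNA1B (GRCh38, chromosome 9, 137877789 to 138124624, plus strand), the N-type pore that triggers transmitter release, had 11.7, 12.6 and 12.2 CPM in ATG7/SQSTM1 KO, 1.29, 1.61 and 2.14 CPM in ATG7 KO and 5.82, 5.92 and 6.14 CPM in control libraries. No libraries of different groups overlapped, and ATG7 KO was -1.82 (SE 0.14, edgeR adjusted p = 3.3e-10) against control. ATG7/SQSTM1 KO was 1.03 (SE 0.12, edgeR adjusted p = 5.25e-07) against control. Against ATG7 KO it was 2.85 (SE 0.14, edgeR adjusted p = 1.18e-13). CACNA1H, a low-voltage T-type pore, had 53.5, 48.6 and 54.1 CPM in ATG7/SQSTM1 KO, 25.1, 24.9 and 25.1 CPM in ATG7 KO and 37.2, 37.8 and 40.1 CPM in control libraries. Its groups did not overlap either, with -0.62 (SE 0.050, edgeR adjusted p = 6.98e-10) in ATG7 KO against control. The ATG7/SQSTM1 KO value was 0.44 (SE 0.047, edgeR adjusted p = 1.65e-07) against control. CACNA1G (GRCh38, chromosome 17, 50561068 to 50627474, plus strand), also T-type, had 2.50, 2.16 and 3.09 CPM in ATG7/SQSTM1 KO, 6.44, 5.93 and 6.03 CPM in ATG7 KO and 2.17, 1.69 and 2.40 CPM in control libraries. It was highest in ATG7 KO, 1.55 (SE 0.16, edgeR adjusted p = 4.24e-08) against control, and ATG7/SQSTM1 KO overlapped control. The L-type pores CACNA1C and CACNA1D were low. CACNA1D had 1.49, 1.54 and 1.72 CPM in ATG7/SQSTM1 KO, 0.477, 0.503 and 0.287 CPM in ATG7 KO and 1.43, 2.13 and 1.70 CPM in control libraries. ATG7 KO was -2.05 (SE 0.27, edgeR adjusted p = 1.21e-06) against control. CACNA1C had 1.31, 1.51 and 0.955 CPM in ATG7/SQSTM1 KO, 0.341, 0.235 and 0.414 CPM in ATG7 KO and 0.884, 0.861 and 0.864 CPM in control libraries. It was lowest in ATG7 KO, -1.38 (SE 0.32, edgeR adjusted p = 0.000882) against control. The change in ATG7/SQSTM1 KO was 1.91 (SE 0.31, edgeR adjusted p = 1.57e-05) against ATG7 KO. CACNA1E, the R-type pore, averaged 0.620 ± 0.215 CPM in ATG7/SQSTM1 KO, 0.0548 ± 0.0509 CPM in ATG7 KO and 0.347 ± 0.179 CPM in control cells, -2.56 (SE 0.70, edgeR adjusted p = 0.00368) in ATG7 KO against control, and was not tested with only the 6 libraries compared, where it missed the filter. The change of CACNA1E rests on few counts: 19, 13 and 27 in ATG7/SQSTM1 KO, 0, 3 and 2 in ATG7 KO and 12, 15 and 5 in control libraries. CACNA1D shares 6.80% of its exon bases with CHDH on the opposite strand.

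The alpha2delta subunits carry calcium pores to the surface, and CACNA2D1 and CACNA2D2 bind gabapentin. CACNA2D2 (GRCh38, chromosome 3, 50362799 to 50504244, minus strand) had 57.1, 63.0 and 59.2 CPM in ATG7/SQSTM1 KO, 15.8, 16.4 and 15.6 CPM in ATG7 KO and 52.5, 55.4 and 56.0 CPM in control libraries. Those of ATG7 KO lay below the others, -1.78 (SE 0.049, edgeR adjusted p = 1.36e-17) against control. For ATG7/SQSTM1 KO the log2 change was 0.13 (SE 0.044, edgeR adjusted p = 0.0223) against control, a call lost without ATG7/SQSTM1 KO replicate 2 or control replicate 1 (adjusted p 0.0972 to 0.152) and with DESeq2 (adjusted p 0.0572). CACNA2D1 had 92.1, 93.3 and 91.3 CPM in ATG7/SQSTM1 KO, 75.2, 79.0 and 76.0 CPM in ATG7 KO and 118, 111 and 112.5 CPM in control libraries. The groups did not overlap, and the change was -0.57 (SE 0.035, edgeR adjusted p = 7.21e-12) in ATG7 KO against control. It was, in ATG7/SQSTM1 KO, -0.31 (SE 0.034, edgeR adjusted p = 3.81e-07) against control. CACNA2D3 had 2.42, 1.99 and 1.88 CPM in ATG7/SQSTM1 KO, 2.49, 2.98 and 2.17 CPM in ATG7 KO and 3.93, 3.58 and 4.06 CPM in control libraries. Control was highest, and ATG7/SQSTM1 KO was -0.88 (SE 0.17, edgeR adjusted p = 0.000232) against it. ATG7 KO was -0.60 (SE 0.16, edgeR adjusted p = 0.00372) against control.

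The cytoplasmic beta subunits split. CACNB4 had 9.90, 11.5 and 11.3 CPM in ATG7/SQSTM1 KO, 1.74, 1.78 and 2.42 CPM in ATG7 KO and 8.38, 9.05 and 9.12 CPM in control libraries. ATG7 KO was -2.15 (SE 0.13, edgeR adjusted p = 4.25e-12) on the log2 scale against control. ATG7/SQSTM1 KO was 0.30 (SE 0.11, edgeR adjusted p = 0.0334) against control, a call lost without ATG7/SQSTM1 KO replicate 2 or 3 or any control library (adjusted p 0.0584 to 0.128) and with DESeq2 (adjusted p 0.0561). CACNB1, best known from skeletal muscle and with its promoter shown above, had 7.69, 7.92 and 8.18 CPM in ATG7/SQSTM1 KO, 11.2, 11.2 and 10.8 CPM in ATG7 KO and 7.62, 8.23 and 7.10 CPM in control libraries. It was highest in ATG7 KO, 0.53 (SE 0.087, edgeR adjusted p = 2.17e-05) against control. CACNB3 averaged 8.29 ± 0.447 CPM in ATG7/SQSTM1 KO, 6.28 ± 0.530 CPM in ATG7 KO and 8.49 ± 0.0227 CPM in control cells, -0.43 (SE 0.10, edgeR adjusted p = 0.000624) in ATG7 KO against control, and CACNB2 was not called in any comparison. The gamma subunits tested, CACNG4 and CACNG8, are known mainly as partners of AMPA-type glutamate receptors. CACNG4 (GRCh38, chromosome 17, 66964910 to 67033398, plus strand) had 11.7, 11.9 and 11.8 CPM in ATG7/SQSTM1 KO, 1.74, 1.37 and 2.74 CPM in ATG7 KO and 5.33, 6.51 and 6.78 CPM in control libraries. No libraries of different groups overlapped, and ATG7 KO was -1.66 (SE 0.19, edgeR adjusted p = 2.37e-06) against control. The change in ATG7/SQSTM1 KO was 0.93 (SE 0.16, edgeR adjusted p = 0.000348) against control. CACNG8 ran the other way and had 0.204, 0.137 and 0.191 CPM in ATG7/SQSTM1 KO, 1.40, 2.11 and 1.53 CPM in ATG7 KO and 0.915, 0.723 and 0.544 CPM in control libraries. It was highest in ATG7 KO, 1.20 (SE 0.28, edgeR adjusted p = 0.000872) against control. It was lowest in ATG7/SQSTM1 KO, -2.003 (SE 0.37, edgeR adjusted p = 0.000151) against control.

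In 6 pairs of neighbours within 500000 bases of each other both genes were tested. KCNA2 and KCNA3 on chromosome 1 are separated by 40991 bases, and their log2 changes in ATG7 KO against control were -2.18 and -1.48. KCNJ11 and KCNC1 on chromosome 11 changed by -1.05 and -1.80 in ATG7 KO against control. SCN3A and SCN2A, whose annotated spans overlap by 9074 bases, had log2 changes of 1.56 and 0.48 in ATG7/SQSTM1 KO against control. In ATG7 KO against control they had 0.14, which was not called for SCN3A, and 0.81. CACNA1D and CACNA2D3 on chromosome 3 changed by -2.05 and -0.60 in ATG7 KO against control. KCND1 and CACNA1F on chromosome X had opposite signs there, 0.44 and -1.24, of which that of CACNA1F was not called. Between the knockouts KCND1 stood at -0.0097, not called, and CACNA1F at 2.34. CACNA1F passed the filter on low counts only through ATG7/SQSTM1 KO, its highest group, so its call between the knockouts is a description. KCNK15 and KCNS1 on chromosome 20 stood at 0.091 and -0.26 in ATG7 KO against control, neither of them called. KCNK15 shares 19.5% of its exon bases with RIMS4 on the opposite strand, which averaged 203 CPM over all libraries, so the KCNK15 counts are uncertain.

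Of 30 tested channel partners and regulators, 17 were lower and 6 higher in ATG7 KO than in control, with a median log2 change of -0.61, while 28.3% of all genes were called lower and 28.4% higher. DPP10, a partner of Kv4 pores, averaged 37.1 ± 1.99 CPM in ATG7/SQSTM1 KO, 11.5 ± 0.682 CPM in ATG7 KO and 26.4 ± 1.71 CPM in control cells, -1.20 (SE 0.067, edgeR adjusted p = 1.43e-12) in ATG7 KO against control. ANK2, an ankyrin that anchors channels to the membrane skeleton, averaged 57.9 ± 0.508 CPM in ATG7/SQSTM1 KO, 21.9 ± 0.353 CPM in ATG7 KO and 48.0 ± 0.537 CPM in control cells. Its relative ANK3 averaged 52.2 ± 1.97 CPM in ATG7/SQSTM1 KO, 87.0 ± 1.03 CPM in ATG7 KO and 45.9 ± 1.23 CPM in control cells. In ATG7 KO against control the log2 change was -1.13 (SE 0.041, edgeR adjusted p = 1.25e-15) for ANK2. For ANK3 it was 0.92 (SE 0.038, edgeR adjusted p = 1.32e-14). RRAD, which inhibits calcium channels, averaged 6.14 ± 0.330 CPM in ATG7/SQSTM1 KO, 22.4 ± 1.03 CPM in ATG7 KO and 9.20 ± 1.59 CPM in control cells, 1.28 (SE 0.10, edgeR adjusted p = 5.59e-10). ADAM22, a partner of Kv1 complexes, averaged 46.5 ± 0.219 CPM in ATG7/SQSTM1 KO, 24.8 ± 0.964 CPM in ATG7 KO and 59.6 ± 1.12 CPM in control cells, -1.26 (SE 0.042, edgeR adjusted p = 3.11e-16). Related pores outside the rule gave 10 lower and 3 higher of 21, with a median of -0.23. Among them the pacemaker channel HCN3 averaged 8.60 ± 0.803 CPM in ATG7/SQSTM1 KO, 4.44 ± 0.497 CPM in ATG7 KO and 8.69 ± 0.611 CPM in control cells, -0.97 (SE 0.11, edgeR adjusted p = 2.01e-07) in ATG7 KO against control.

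Lists of genes that move ions without voltage-gated pores were set against the same backgrounds of 28.3% lower and 28.4% higher. Ion pumps and exchangers gave 11 lower and 9 higher of 27, with a median of -0.015, and chloride and anion channels 9 lower and 6 higher of 22, with a median of -0.035. Calcium release and store-operated entry genes gave 2 lower and 9 higher of 17, with a median of 0.20. Differences between lists were not tested. The sodium-calcium exchanger SLC8A1 averaged 27.8 ± 0.200 CPM in ATG7/SQSTM1 KO, 55.1 ± 2.00 CPM in ATG7 KO and 18.5 ± 0.591 CPM in control cells, 1.57 (SE 0.047, edgeR adjusted p = 4.37e-17) in ATG7 KO against control. ANO9, of the anoctamin family, averaged 14.2 ± 1.60 CPM in ATG7/SQSTM1 KO, 12.3 ± 0.687 CPM in ATG7 KO and 45.0 ± 2.99 CPM in control cells. It was lower than control in ATG7/SQSTM1 KO, -1.66 (SE 0.073, edgeR adjusted p = 7.41e-13). It was also lower than control in ATG7 KO, -1.87 (SE 0.075, edgeR adjusted p = 3.11e-14). RYR2, the calcium release channel of heart and brain, averaged 13.2 ± 0.798 CPM in ATG7/SQSTM1 KO, 6.76 ± 0.116 CPM in ATG7 KO and 18.4 ± 1.11 CPM in control cells, -1.45 (SE 0.078, edgeR adjusted p = 1e-12) in ATG7 KO. Of 10 genes for REST, a repressor of neuronal channel genes, and its partners, 3 were lower and 2 higher, beside those backgrounds of 28.3% and 28.4%. REST averaged 31.0 ± 1.61 CPM in ATG7/SQSTM1 KO, 36.6 ± 1.92 CPM in ATG7 KO and 25.8 ± 1.17 CPM in control cells, 0.51 (SE 0.055, edgeR adjusted p = 6.78e-08) in ATG7 KO against control. SRRM4, a neuronal splicing factor that inactivates REST, averaged 5.94 ± 0.811 CPM in ATG7/SQSTM1 KO, 2.92 ± 0.200 CPM in ATG7 KO and 7.52 ± 0.167 CPM in control cells, -1.36 (SE 0.13, edgeR adjusted p = 5.73e-09). The part of REST in the channel changes was not tested.

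**Figure D5:**
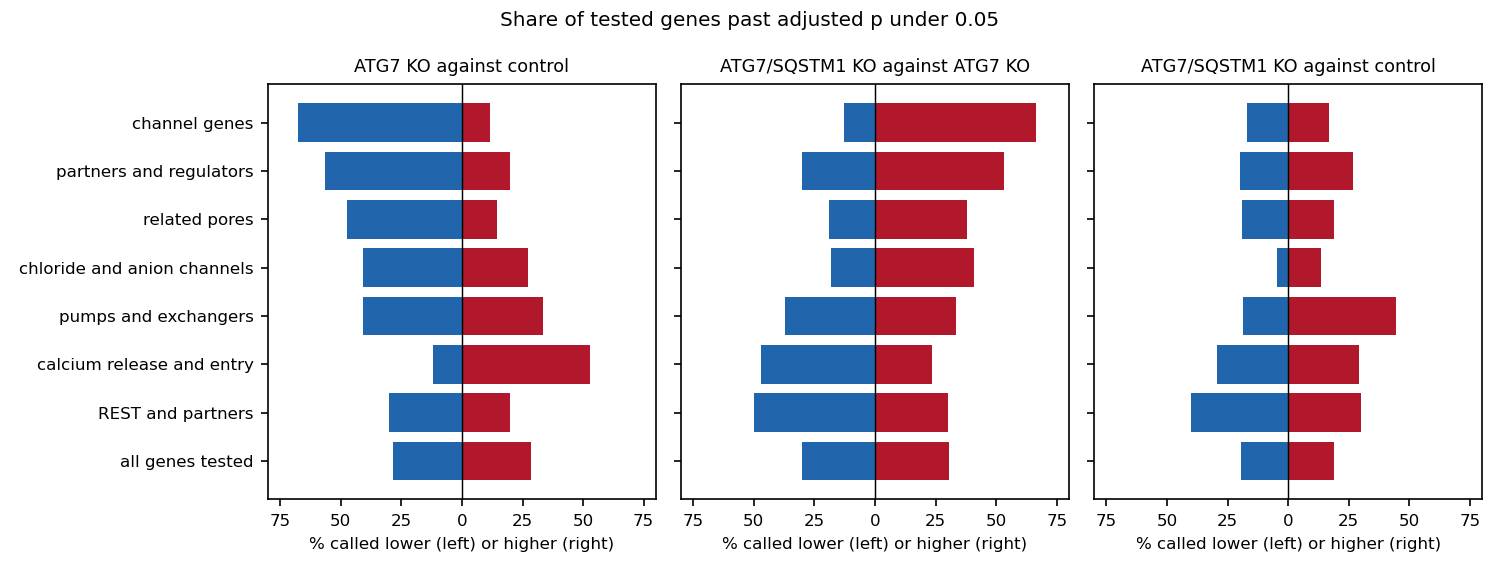
Percent of tested genes called lower (left of zero) or higher (right of zero) at an edgeR adjusted p under 0.05 in each comparison, for the channel genes, the related lists and all genes tested. In ATG7 KO against control 52 of 77 channel genes are called lower, while 28.3% of all genes are.

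The other 62 channel rows did not pass the filter, and 17 of them had no count in any library. Among those without a count were KCNA1, KCNA5 and KCNA6, Shaker-type pores, SCN10A, a pore of pain-sensing neurons, KCNJ1, a kidney inward rectifier, and CACNG1, a subunit of the skeletal muscle channel. The remaining 45 had at most 27 counts in a library and at most 0.465 CPM in any group mean. The highest, KCNJ16, had 22, 42 and 8 counts in all over the ATG7/SQSTM1 KO, ATG7 KO and control libraries. At this depth a count of 0 in a library allows up to 0.0877 to 0.105 CPM for counting error alone, so a 0 does not show that a gene was silent. Lower levels can still give a count: KCNK4 had 1 count, 0.0291 CPM, in ATG7/SQSTM1 KO replicate 1.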

How the data were processed

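The data are 9 RNA-seq libraries of DMS273 cells. Per the labels, 400 ng of total RNA was depleted of rRNA and copied into strand-specific libraries with 12 PCR cycles. The submitters' processing notes name HISAT2 and the build hg38. No source used here gives the counting program, annotation or strand setting. The authors deposited whole-number counts per gene with no normalization. Missing cells were read as 0. A column without a sample name, all 0, and a line of column numbers under the header were left out.

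The test was edgeR 4.0.16 in R 4.3.3. Keeping genes by filterByExpr (minimum count 10, by group) left 18847, scaled with TMM. The robust quasi-likelihood model used the 9 libraries together, with 6 residual degrees of freedom. Benjamini-Hochberg adjusted p-values over all tested genes were called under 0.05. The SE is the absolute log2 change divided by the square root of F. CPM per kb used GENCODE release 29 exon lengths, and promoter sequences come from RefSeq (GRCh38.p14). The scripts were tested on simulated data. Alternatives were other scalings and low-value filters, DESeq2 1.42.0, a replicate block, only the compared libraries, and leaving out each library.

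Genes given in full were chosen per comparison as the 12 largest rises and 12 largest falls, where that many were called, with a mean of 1 CPM or more in the higher group. The gene highest per kb in each class was added, and up to 4 genes of each other list by smallest p. Some genes that this rule picks are not reported here by name and are left out of the plots of single genes, but they count in all totals. Other genes were named after their values were seen. The channel genes and lists were chosen with earlier results of these data known. Libraries of a group differed beyond sampling noise (chi-square per degree of freedom 4.47 to 7.03). Floors (3 counts) cover counting error only, since reads carry no molecular identifiers.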

Additional observations from a re-analysis of the deposited data

How the results depend on the processing

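Counts of called channel genes stayed within 1.5 times those reported under the alternatives tried, except that 8 rather than 13 were lower in ATG7/SQSTM1 KO against control without ATG7/SQSTM1 KO replicate 3. That count was 8 to 11 over the fits without 1 library. Of the called channel genes, 55 of 61 (ATG7 KO against control), 60 of 61 (ATG7/SQSTM1 KO against ATG7 KO) and 17 of 26 (ATG7/SQSTM1 KO against control) kept their call whichever library was left out. Of 1586 recomputed log2 changes of 41 genes, 1511 kept direction and side of the threshold, 56 lost and 4 gained a call, and 15 changed sign, none of them called. For ATG7/SQSTM1 KO against ATG7 KO, KCND1 was 0.0284 on library totals and 0.0015 with a mean of at least 1 CPM. Without single libraries it was -0.0838 to 0.0665, and KCNAB3 was -0.3061 to 0.0786. For ATG7/SQSTM1 KO against control without single libraries, KCNJ3 was -0.0513 to 0.0145, CACNA1D -0.2676 to 0.017 and SCN8A -0.0807 to 0.2257. KCNJ2 in ATG7 KO against control was -0.1629 to 0.0923. The cause was not tested. The filter at a mean of 1 CPM left 58 channel genes, and genes below it, such as KCNN4, are limited by depth.

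With the replicate number as a block, 9 channel genes were higher and 51 lower in ATG7 KO against control, 51 and 10 in ATG7/SQSTM1 KO against ATG7 KO, and 13 and 10 in ATG7/SQSTM1 KO against control. The call of KCNMB3 in ATG7 KO against control was lost under the block (adjusted p 0.0637). In the last comparison KCNH3, KCNK3 and SCN3B had adjusted p of 0.0512, 0.0615 and 0.0728 under the block. Same-numbered libraries did not deviate together (correlations -0.061 to 0.023, against -0.047 to 0.053 for other numbers). With 3 libraries per group this cannot show whether a number marks shared preparation, and the labels do not say.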
